A study of Homo sapiens with 4 samples.

Results

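The transcripts of RUNX1, RUNX2, RUNX3, their shared partner CBFB and 5 further transcription factors or cofactors, FOXP1, RREB1, LDB1, ZBTB7A and CIC, were followed in U937 cells, an established human leukemia line with monocytic features. These 9 genes were taken by Ensembl identifier out of 17656 genes in the deposited table, and all 9 were among the 14582 that passed the filter of at least 1 TPM in 2 libraries. TPM is the level of a transcript per unit of its length, as a share of a library's total. The study asked which regulators act with ZNF217, a zinc finger protein that works with corepressors, in acute myeloid leukemia, and for this line 2 libraries labelled NC, given as without treatment, and 2 labelled sh-ZNF217, given as a knockdown, were sequenced from total RNA. The hairpin, the vector, the time after transduction and the number of cultures behind each group were not stated in the labels. The study's methods also give a knockdown for the U937 RNA-seq, while its results describe these groups as a CRISPR-Cas9 knockout.

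RUNX proteins bind DNA through the Runt domain, and the non-DNA-binding subunit CBFB raises their affinity and protects them from degradation. RUNX1 and CBFB are needed for definitive blood formation and are common targets of chromosome rearrangements in acute myeloid leukemia, RUNX2 is best known for directing bone formation, and RUNX3 acts in cytotoxic T cells, dendritic cells and neurons. FOXP1 is a forkhead repressor, RREB1 a zinc finger factor at the crossing of RAS and TGF-beta signals, LDB1 a scaffold that joins LMO proteins and their DNA-binding partners and brings enhancers to promoters, ZBTB7A a repressor of fetal globin and of glycolysis genes, and CIC a repressor that is released from its targets when ERK is active.

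The ZNF217 transcript itself stood at 36.1 and 36.7 TPM in NC and at 35.8 and 35.0 TPM in the other 2 libraries, -0.04 on the log2 scale (SE 0.07, limma adjusted p = 0.74). Its level did not set the groups apart by more than this error, so each direction below is that of the label, and the term sh-ZNF217-labelled libraries is kept. Median absolute log2 differences over the tested genes were 0.122 and 0.128 between libraries of a group and 0.243 to 0.253 across groups. Read depth was unknown. Whether the 2 libraries of a group stem from separate cultures is not labelled, so p-values reflect only how far these samples vary, which may be technical variation.

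Of the 9 genes, 7 had a positive and 2 a negative log2 fold change, with a median of 0.21 against 0.02 over all tested genes. In limma with Benjamini-Hochberg adjustment over all 14582 genes, 0 of 9 were changed, a call that needed a log2 fold change beyond 0.5 in size together with an adjusted p under 0.05. Among all tested genes 6.26% were changed in the higher and 2.46% in the lower direction. RUNX2, RUNX3, RREB1 and LDB1, 4 of the 9, were higher at an adjusted p below 0.05 without reaching that fold, a mark met in the higher direction by 9.77% of tested genes, and 0 of 9 were lower, against 7.11%. This count without a fold minimum was added because earlier results of these data showed members near that minimum, so it describes them only. The same 4 genes had an unadjusted p below 0.05, and the share of all tested genes with such a p was not counted. For 7 of the 9 genes both sh-ZNF217-labelled libraries lay above both NC libraries, as they did for 33.5% of tested genes, and for 0 of 9 they lay below, against 28.6%. Only CBFB and FOXP1 had groups that overlapped.

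**Figure D1:**
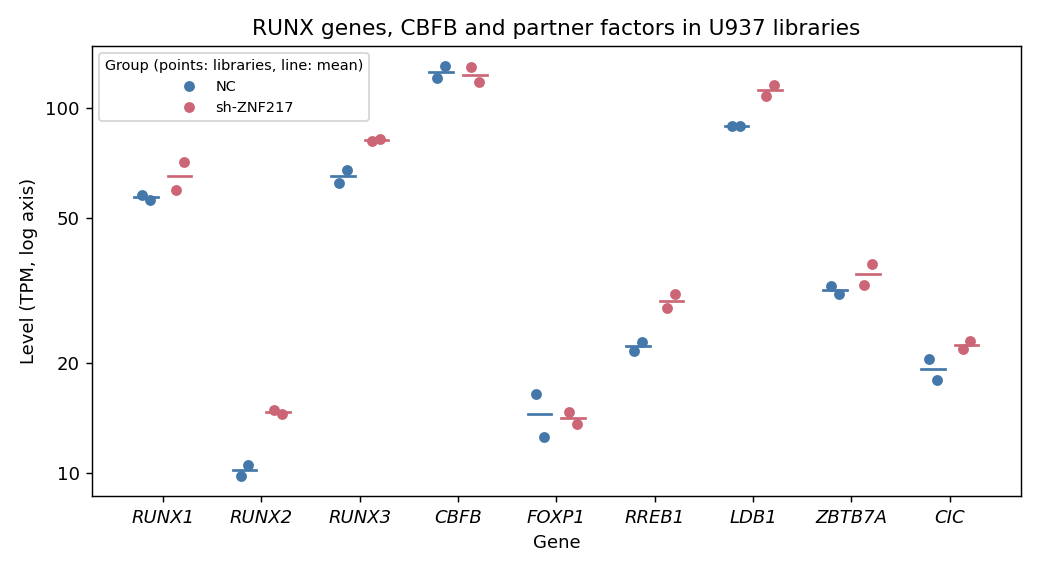
TPM level of the 9 genes (log axis). Points are libraries and lines group means, blue for NC and red for sh-ZNF217. CBFB is the most abundant of the 9 and its groups overlap, while the means of RUNX2 (10.1 and 14.7 TPM) and LDB1 (89.3 and 112 TPM) come from groups with no overlap.

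The 9 levels spanned an order of magnitude in NC. CBFB was highest with a mean of 125.5 TPM, at percentile 90.9 of the tested genes by mean level, followed by LDB1 at 89.3, RUNX3 at 65.1, RUNX1 at 57.0, ZBTB7A at 31.7, RREB1 at 22.2, CIC at 19.3, FOXP1 at 14.5 and RUNX2 at 10.1 TPM. In NC no neighbours in this order had overlapping libraries. In the sh-ZNF217-labelled libraries the order was the same except at its end, where RUNX2 (14.9 and 14.5 TPM) and FOXP1 (14.7 and 13.6 TPM) overlapped.

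RUNX1 (ENSG00000159216, chromosome 21, 34787801 to 36004667, minus strand, hg38) is the family member that establishes blood stem cells and restrains immature myeloid growth. It was at 57.9 and 56.0 TPM in NC and at 59.4 and 71.1 TPM in the sh-ZNF217-labelled libraries. The lower of the latter was only just above the NC libraries, and the gap between the 2 was 0.25 on the log2 scale against 0.05 within NC. This was a log2 fold change of 0.19 (SE 0.10, 95% interval -0.06 to 0.43, limma adjusted p = 0.237), and leaving out sh-ZNF217 replicate 1 or 2 gave 0.31 or 0.06.

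RUNX2 (ENSG00000124813, chromosome 6, 45328157 to 45664349, plus strand), the osteoblast regulator and a factor that the study placed in the circuit around ZNF217, was at 9.80 and 10.5 TPM in NC. In the sh-ZNF217-labelled libraries it was at 14.9 and 14.5 TPM. The groups were separated by several times the gap within either, and the ratio of means was 1.45. On the log2 scale the difference was 0.49 (SE 0.11, 95% interval 0.22 to 0.77, limma adjusted p = 0.0369), the largest of the 9. It lay just under the fold minimum and passed it, with an adjusted p below 0.05, with a pseudocount of 0.1 (0.53), without mitochondrially encoded genes (0.53) and with protein-coding genes alone (0.50).

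RUNX3 (ENSG00000020633, chromosome 1, 24899511 to 24965121, minus strand), which acts downstream of TGF-beta in lymphoid and myeloid cells, was at 62.4 and 67.8 TPM in NC and at 81.2 and 82.3 TPM in the sh-ZNF217-labelled libraries. Both of the latter were higher than either NC library, by a ratio of means of 1.26. Its log2 fold change of 0.33 passed the adjusted p alone (SE 0.07, 95% interval 0.16 to 0.49, limma adjusted p = 0.0313).

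CBFB (ENSG00000067955, chromosome 16, 67028984 to 67101058, plus strand), the common partner subunit, was at 121 and 130 TPM in NC and at 129 and 118 TPM in the sh-ZNF217-labelled libraries. The libraries interleaved, and means of 125.5 ± 6.46 and 123 ± 8.28 TPM (SD, n = 2 each) differed by less than either spread. The log2 fold change of -0.02 (95% interval -0.20 to 0.16, limma adjusted p = 0.847) had no stable sign, since leaving out NC replicate 2 (0.03), sh-ZNF217 replicate 2 (0.04) or the mitochondrially encoded genes (0.01) turned it.

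Set against CBFB, the RUNX transcripts together were higher. The summed level of RUNX1, RUNX2 and RUNX3 was 130 and 134 TPM in NC and 156 and 168 TPM in the sh-ZNF217-labelled libraries, and its ratio to CBFB was 1.08 and 1.03 against 1.20 and 1.43. The ratio thus differed by 0.261 between the group means, and by 0.148 without sh-ZNF217 replicate 2, the library with the highest RUNX1 and the lowest CBFB of its group. An exact two-sided permutation test gave p = 0.333, the smallest value that 2 against 2 libraries allow, so this design could not reach 0.05. Within the sum RUNX3 held 48.0% and 50.5% in NC and 52.2% and 49.0% in the sh-ZNF217-labelled libraries, and RUNX1 held 44.5% and 41.7% against 38.2% and 42.3%. Both shares overlapped between the groups. The RUNX2 share was small and did not overlap, with 7.53% and 7.81% against 9.57% and 8.62%, a difference of 1.43 percentage points (exact permutation p = 0.333), which was 0.955 without sh-ZNF217 replicate 1.

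**Figure D2:**
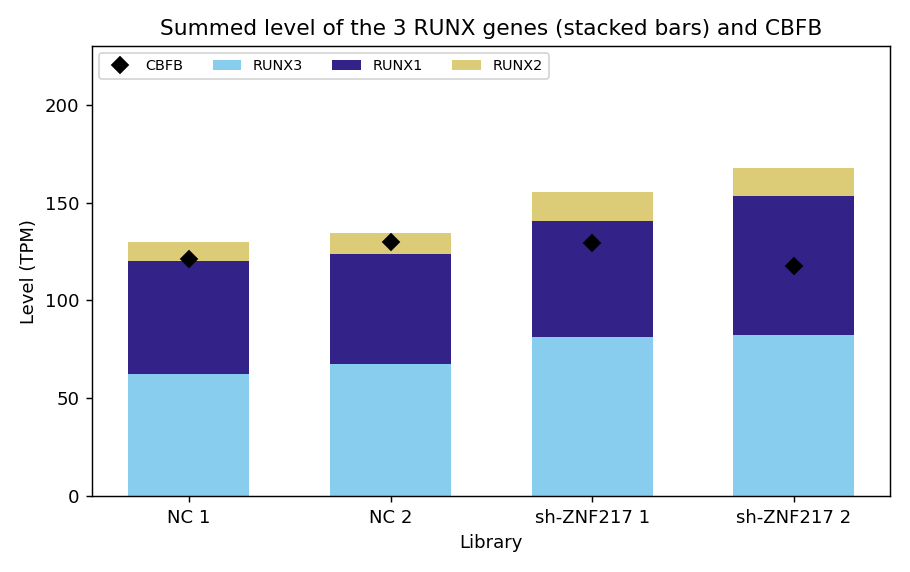
Level in TPM of RUNX3, RUNX1 and RUNX2 as stacked bars, with CBFB as a diamond, for each of the 4 libraries. The stacked sum is 130 and 134 TPM for NC and 156 and 168 TPM for the sh-ZNF217-labelled libraries, while CBFB stays between 118 and 130 TPM without order.

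The RefSeq promoter table (GRCh38.p14) held 18 upstream windows of 250 bases for 8 of the 9 genes, with several start sites for some, and CBFB was the gene without an entry. They were searched on both strands for the core letters TGTGGT (reverse complement ACCACA) of RUNX sites. Of the 18 windows 3 held them, 1 each of RUNX2, RUNX3 and FOXP1, and those of RUNX2 and RUNX3 held them 2 times. Among all 35116 windows of that length 11% held these letters at least 1 time and 0.954% at least 2 times. Counted from the start site, with -1 as the base just before it, the matches began at -131 and -123 in the upstream window of RUNX3, at -191 and -87 in that of RUNX2, and at -7 in that of FOXP1. The stretches before the first base covered by a GENCODE exon are shown 5′ to 3′ for RUNX3 and RUNX2, the family members that differed at an adjusted p below 0.05, and for comparison those of RUNX1 and LDB1, whose windows held no match. RUNX1 and LDB1 had 1 window each, which lay inside the annotated span of the gene and away from its 5′ end. Other start sites of RUNX1 and LDB1 were not searched, so the lack of a match covers these windows only. RUNX2 and RUNX3 had 2 windows each. The window of each that is not shown also lay inside the annotated span, and it held no match. The windows with and without matches thus differ in place as well as in gene. Capitals mark the RUNX letters.
RUNX3, chr1:24965122-24965260, minus strand: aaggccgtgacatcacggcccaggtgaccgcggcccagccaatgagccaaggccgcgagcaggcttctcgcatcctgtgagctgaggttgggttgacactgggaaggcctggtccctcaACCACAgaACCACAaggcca
RUNX2, chr6:45328080-45328156, plus strand: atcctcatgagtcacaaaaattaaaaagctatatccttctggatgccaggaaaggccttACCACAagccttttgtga
RUNX1, chr21:34888700-34888949, minus strand: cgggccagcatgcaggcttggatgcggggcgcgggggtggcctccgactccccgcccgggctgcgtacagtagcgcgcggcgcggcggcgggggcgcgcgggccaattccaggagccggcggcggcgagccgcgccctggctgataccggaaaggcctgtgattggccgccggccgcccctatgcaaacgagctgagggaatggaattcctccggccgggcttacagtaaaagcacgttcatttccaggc
LDB1, chr10:102115003-102115252, minus strand: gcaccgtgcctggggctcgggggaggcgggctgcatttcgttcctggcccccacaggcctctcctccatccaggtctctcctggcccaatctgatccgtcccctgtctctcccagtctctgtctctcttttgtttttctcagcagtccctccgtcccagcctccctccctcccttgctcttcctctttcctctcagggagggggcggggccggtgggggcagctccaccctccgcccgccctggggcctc

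In the RUNX3 stretch the letters stand in tandem on the same strand, with 2 bases between them. The second match of RUNX2 lies within an annotated exon and is not shown. GC content was 63.3% in the RUNX3 stretch, 40.3% in that of RUNX2, 71.2% in that of RUNX1 and 67.2% in that of LDB1. The other letters searched were rarer or absent among the 18 windows. CCGGAA (ETS) was in 2 of them, those of RUNX1 and of a FOXP1 start (14.5% of all windows), TGTTTAC (forkhead) in 1 of FOXP1 (2.98%), TGAATG (the start of CIC octamers) in 1 of RUNX2 (9.92%) and TGCAGAA (ZNF217) in 0 (4.28%). A match is a description of these letters, and binding was not measured in the libraries used here.

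The partner factors differed among themselves. LDB1 (ENSG00000198728, chromosome 10, 102106489 to 102120368, minus strand), which the study considered beside its circuit, was at 89.4 and 89.3 TPM in NC and at 108 and 116 TPM in the sh-ZNF217-labelled libraries. The NC libraries were nearly equal and both others were higher, a ratio of means of 1.25. Its log2 fold change of 0.32 passed the adjusted p alone (SE 0.06, 95% interval 0.17 to 0.48, limma adjusted p = 0.0261).

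RREB1 (ENSG00000124782, chromosome 6, 7107597 to 7251980, plus strand) was at 21.5 and 22.9 TPM in NC and at 28.3 and 30.9 TPM in the sh-ZNF217-labelled libraries, without overlap. Its log2 fold change was 0.40 (SE 0.09, 95% interval 0.18 to 0.62, limma adjusted p = 0.0384), next in size to that of RUNX2.

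FOXP1 (ENSG00000114861, chromosome 3, 70954693 to 71583978, minus strand), which the study counted with RUNX2 in the circuit, showed no such difference. It was at 16.5 and 12.6 TPM in NC and at 14.7 and 13.6 TPM in the sh-ZNF217-labelled libraries, so that the NC libraries enclosed the others. The log2 fold change of -0.02 had a wide 95% interval of -0.40 to 0.35 (limma adjusted p = 0.929), and its sign turned if mitochondrially encoded genes (0.01), NC replicate 1 (0.16) or sh-ZNF217 replicate 2 (0.03) were left out. FOXP1 shares 57 exon bases with ENSG00000277855 on the other strand and 2539 with ENSG00000285708 on the same strand, so its value carried that uncertainty.

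ZBTB7A (ENSG00000178951, chromosome 19, 4043303 to 4066899, minus strand) was at 32.5 and 31.0 TPM in NC and at 32.8 and 37.4 TPM in the sh-ZNF217-labelled libraries (log2 fold change 0.14, 95% interval -0.09 to 0.37, limma adjusted p = 0.347). CIC (ENSG00000079432, chromosome 19, 42268537 to 42295797, plus strand) was at 20.6 and 18.0 TPM against 21.8 and 23.0 TPM (log2 fold change 0.21, 95% interval -0.05 to 0.47, limma adjusted p = 0.212). Neither overlapped between groups, but the nearest libraries lay close together and both intervals included 0. The log2 fold change of ZBTB7A was 0.23 or 0.05 when sh-ZNF217 replicate 1 or 2 was left out, and that of CIC was 0.12 without NC replicate 2.

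**Figure D3:**
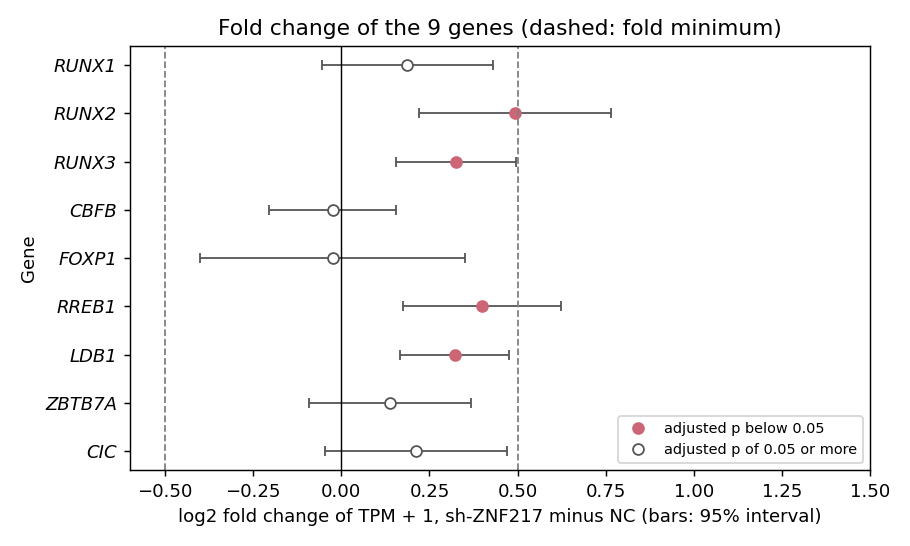
Difference in log2(TPM + 1), sh-ZNF217 minus NC, of the 9 genes with 95% intervals, with filled points for an adjusted p below 0.05 and dashed lines at the fold minimum of 0.5. The intervals of RUNX2, RUNX3, RREB1 and LDB1 lie above 0 and those of the other 5 include 0.

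The 4 adjusted p-values depended on the processing and on each library. All 4 stayed below 0.05 under 6 of 12 alternatives, which changed the pseudocount, the filter or the scaling. Under limma without trend and robust moderation 0 stayed below it. Without NC replicate 2 only RUNX3 (0.0403) did. Without NC replicate 1, sh-ZNF217 replicate 1 or sh-ZNF217 replicate 2 0 did. Over the left-out libraries the log2 fold change ran from 0.45 to 0.54 for RUNX2, from 0.27 to 0.38 for RUNX3, from 0.34 to 0.46 for RREB1 and from 0.27 to 0.37 for LDB1.

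**Figure D4:**
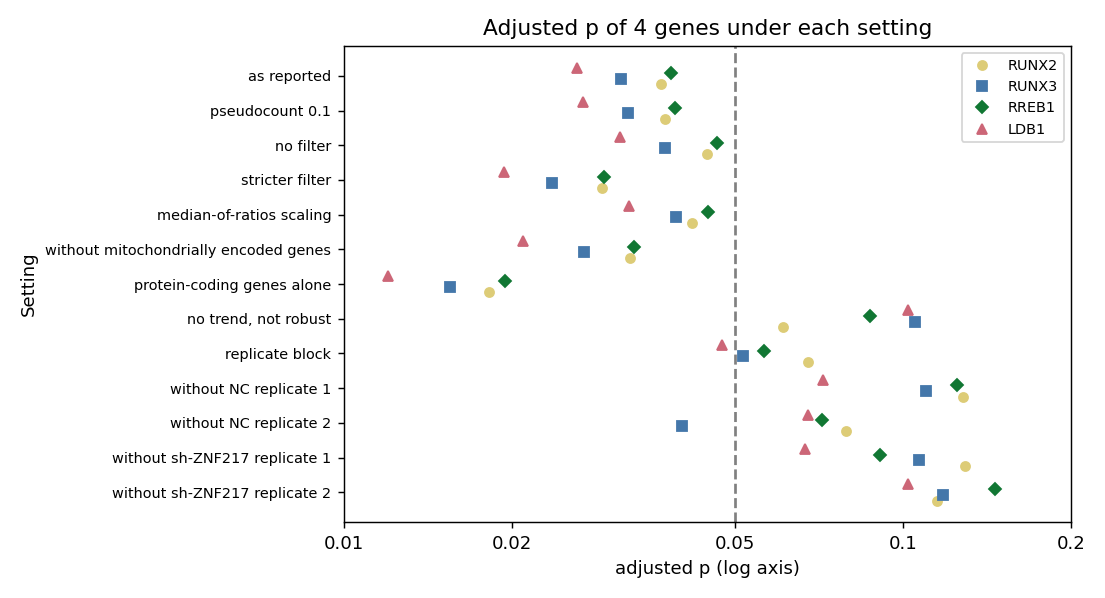
Adjusted p on a log axis of RUNX2, RUNX3, RREB1 and LDB1 as reported and under 12 alternative settings, with a dashed line at 0.05. All 4 genes lie left of the line under settings of pseudocount, filter and scaling, and most points lie right of it when a library is left out.

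Other tested genes with the most similar profile were looked up for the RUNX genes and CBFB, by Euclidean distance of log2(TPM + 1) over the 4 libraries after centring each gene, among 9347 protein-coding genes with a mean of at least 5 TPM. For RUNX1 they were BCL2L2, STAMBP and NBPF26, with distances of 0.0152 to 0.0238, for RUNX2 GCC2, CCDC82 and CD180 (0.0214 to 0.0284), for RUNX3 RABGAP1L and IDH1 (0.0163 each) and for CBFB CCZ1B, MTMR10 and BPTF (0.0148 to 0.0160). CD180, a toll-like receptor relative of B cells and myeloid cells, went from 39.7 and 42.6 to 58.1 and 56.3 TPM beside RUNX2. RABGAP1L, a regulator of RAB GTPases, went from 24.2 and 26.3 to 31.2 and 31.8 TPM beside RUNX3. Profiles of 4 values matched this closely in a search over so many genes carry no more than a description, and NBPF26 and CCZ1B have near-identical copies.

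Genes that act with these factors or that they are known to regulate were described from 10 lists. Their counts stand beside 6.26% changed in the higher and 2.46% in the lower direction over all tested genes. The other circuit candidates of the study comprised 8 genes, of which 1 was changed. MEF2D, a MADS-box factor, fell from 72.4 and 69.5 TPM to 43.5 and 47.4 TPM (log2 fold change -0.63, limma adjusted p = 0.00806). ELF1, an ETS factor, was higher at 138 and 142 against 110 and 117 TPM (0.30, limma adjusted p = 0.0256), short of the fold minimum. The count was 2 without mitochondrially encoded genes, where the interferon factor IRF1 was called (0.51), and with protein-coding genes alone, where the ETS factor ERG was (-0.73).

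Among 22 tested RUNX cofactors and corepressors 2 rose, 0 fell and 20 were not changed, with a median of 0.03. Over all tested genes 6.26% rose and 2.46% fell, and the list was not tested as a set. RUNX1T1, the corepressor known as ETO that is fused to RUNX1 in a frequent leukemia translocation, rose from 7.67 and 6.91 TPM to 13.6 and 14.4 TPM (log2 fold change 0.85, limma adjusted p = 0.0126). HIPK2, a kinase that phosphorylates RUNX1, rose from 18.8 and 19.9 TPM to 30.3 and 30.7 TPM (0.63, limma adjusted p = 0.0107). In both genes the 2 sh-ZNF217-labelled libraries were close together and well above NC. Without sh-ZNF217 replicate 1 or 2 the adjusted p-values were 0.0634 and 0.0688 for RUNX1T1 and 0.0604 and 0.0617 for HIPK2. PRMT1, an arginine methyltransferase of RUNX1, was lower at 227 and 243 against 339 and 319 TPM (-0.49, limma adjusted p = 0.0094). It was changed with median-of-ratios scaling (-0.52), without NC replicate 2 (-0.53) and without sh-ZNF217 replicate 2 (-0.54), and it shares 171 exon bases with a gene on the other strand.

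Of 20 tested targets of RUNX1 and CBFB in myeloid cells 3 rose, 4 fell and 13 were not changed, and the median was 0.02. The shares that rose and fell over all tested genes were 6.26% and 2.46%. PRTN3, the granule serine protease proteinase 3, fell from 186 and 191 to 69.2 and 73.5 TPM (log2 fold change -1.39, limma adjusted p = 0.00077), and ELANE, neutrophil elastase, from 42.4 and 36.8 to 22.1 and 22.5 TPM (-0.80, limma adjusted p = 0.00863). MYC, a driver of growth, fell from 158 and 150 to 80.0 and 88.2 TPM (-0.87). MYB, a factor of blood progenitors, fell as well (-0.63). CSF1R, the receptor of macrophage colony-stimulating factor, rose from 7.50 and 7.56 to 13.3 and 14.3 TPM (0.79, limma adjusted p = 0.0135), the cell cycle inhibitor CDKN1A from 39.9 and 41.8 to 73.7 and 77.2 TPM (0.87), and ITGAX, the integrin chain CD11c, from 4.81 and 5.46 to 8.17 and 10.6 TPM (0.75, limma adjusted p = 0.041). Without sh-ZNF217 replicate 1 or 2 the calls of CSF1R (adjusted p = 0.0625 and 0.0714) and ELANE (0.0529 and 0.0515) were lost, and that of ITGAX was lost without any of the 4 libraries (0.0685 to 0.15). MYC, MYB and CDKN1A share exon bases with antisense RNAs, and the use of strand in counting is not known here.

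Of the RUNX2 targets known from bone 5 of 16 were tested. SPP1, the secreted matrix protein osteopontin that macrophages also make, was at 1.19 and 3.54 TPM in NC and at 36.7 and 34.5 TPM in the sh-ZNF217-labelled libraries (log2 fold change 3.54, SE 0.34, limma adjusted p = 0.00507). The NC libraries differed by a wide ratio, and the value ran from 3.01 to 4.06 when either was left out. RANBP1, a regulator of the Ran GTPase, fell from 688 and 679 to 496 and 461 TPM (-0.51, limma adjusted p = 0.00615). It missed the fold minimum without mitochondrially encoded genes (-0.48) and without sh-ZNF217 replicate 2 (-0.46), and it shares exon bases with TRMT2A on the other strand. MMP9 and VEGFA were not changed (0.24 and -0.13). The bone collagens, BGLAP, IBSP and SP7 were not among the genes tested.

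Of 6 tested RUNX3 targets 2 rose and 0 fell, against 6.26% and 2.46% of all tested genes. The 2 that rose were the signalling chains of the TGF-beta receptor. TGFBR1 rose from 71.9 and 72.5 to 116 and 111 TPM (log2 fold change 0.65, limma adjusted p = 0.00487) and TGFBR2 from 45.2 and 45.9 to 79.6 and 78.6 TPM (0.78, limma adjusted p = 0.00324). Both were called under all 12 alternatives. CD83, a marker of mature dendritic cells, was higher short of the fold minimum (0.34, limma adjusted p = 0.03). ITGA4, ZBTB7B and ITGAE were not changed (-0.28, 0.06 and -0.03), and the cytotoxic genes CD8A, PRF1, GZMB and IFNG were not among the genes tested.

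The lists of FOXP1 and ZBTB7A held 1 changed gene each. Of 8 tested FOXP relatives and FOXO factors, FOXO3, a forkhead activator of stress resistance, rose from 17.3 and 15.9 to 26.2 and 22.9 TPM (log2 fold change 0.54, limma adjusted p = 0.0293), and this call was lost without any of the 4 libraries (0.0523 to 0.116). Of 9 tested ZBTB7 relatives and ZBTB7A targets, SLC2A3, the glucose transporter GLUT3, rose from 17.2 and 17.0 to 31.3 and 31.3 TPM (0.84, limma adjusted p = 0.00536). From the list of RREB1 partners and linked genes, KDM1A, a histone demethylase that acts with CTBP and RREB1, and HRAS were lower short of the fold minimum (-0.24 and -0.39, limma adjusted p = 0.0408 and 0.0457).

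LDB1 was higher while 3 of its tested partners were lower, all short of the fold minimum. Of 13 tested members of the list, which does not hold LDB1 itself, 0 were changed in limma. At an adjusted p below 0.05, 3 were lower and 0 higher, against 7.11% and 9.77% of all tested genes. The list was not tested as a set. An unadjusted p below 0.05 was met by 4, these 3 among them, and the share of all tested genes with such a p was not counted. The other was the LDB1-binding protein SSBP3, which lay in the direction of LDB1 with 93.0 and 87.4 against 103 and 102 TPM (0.18, limma adjusted p = 0.1). LYL1, a basic helix-loop-helix factor of the TAL1 type, was at 202 and 184 TPM in NC and at 132 and 142 TPM in the sh-ZNF217-labelled libraries (log2 fold change -0.49, limma adjusted p = 0.0133). It passed the fold minimum with median-of-ratios scaling (-0.52) and without NC replicate 2 (-0.56). LMO2, the LIM-only bridge between LDB1 and these factors, went from 139 and 147 to 112 and 117 TPM (-0.32, limma adjusted p = 0.0252), and the E protein TCF3 from a mean of 97.4 to 79.0 and 83.5 TPM (-0.26, limma adjusted p = 0.0498). The ratio of LDB1 to LMO2 was 0.643 and 0.607 in NC and 0.963 and 0.989 in the sh-ZNF217-labelled libraries (exact permutation p = 0.333, the smallest possible). The ratio was chosen after these values were seen. TAL1, GATA1, GATA2 and LDB2 were not among the genes tested.

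Among 13 tested partners of CIC and genes it represses 4 rose, 0 fell and 9 were not changed, with a median of 0.17. Over all tested genes 6.26% rose and 2.46% fell. DUSP6, a phosphatase that switches off ERK, rose from 46.0 and 44.7 to 83.1 and 78.0 TPM (log2 fold change 0.82, limma adjusted p = 0.00376), and its relative DUSP4 from 13.1 and 12.4 to 20.3 and 18.3 TPM (0.56, limma adjusted p = 0.0249). PHLDA1, a further gene of the ERK response, rose from 2.52 and 2.25 to 9.07 and 8.45 TPM (1.53, limma adjusted p = 0.00644). ATXN1, which is a binding partner of CIC and not a target, rose from 8.12 and 7.08 to 12.1 and 13.6 TPM (0.69, limma adjusted p = 0.0274). The classical CIC targets ETV4 and ETV5 were not changed (-0.35 and -0.02), nor were SPRY4 and SPRY2 (0.33 and -0.17). The call of DUSP4 was lost without any of the 4 libraries (0.0591 to 0.106) and that of ATXN1 without NC replicate 2, sh-ZNF217 replicate 1 or sh-ZNF217 replicate 2 (0.0795, 0.0795 and 0.115). DUSP6 shares 1105 exon bases with ENSG00000274021 on the other strand, PHLDA1 shares some with an antisense RNA and ATXN1 with a gene on its own strand, so these values carried that uncertainty.

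**Figure D5:**
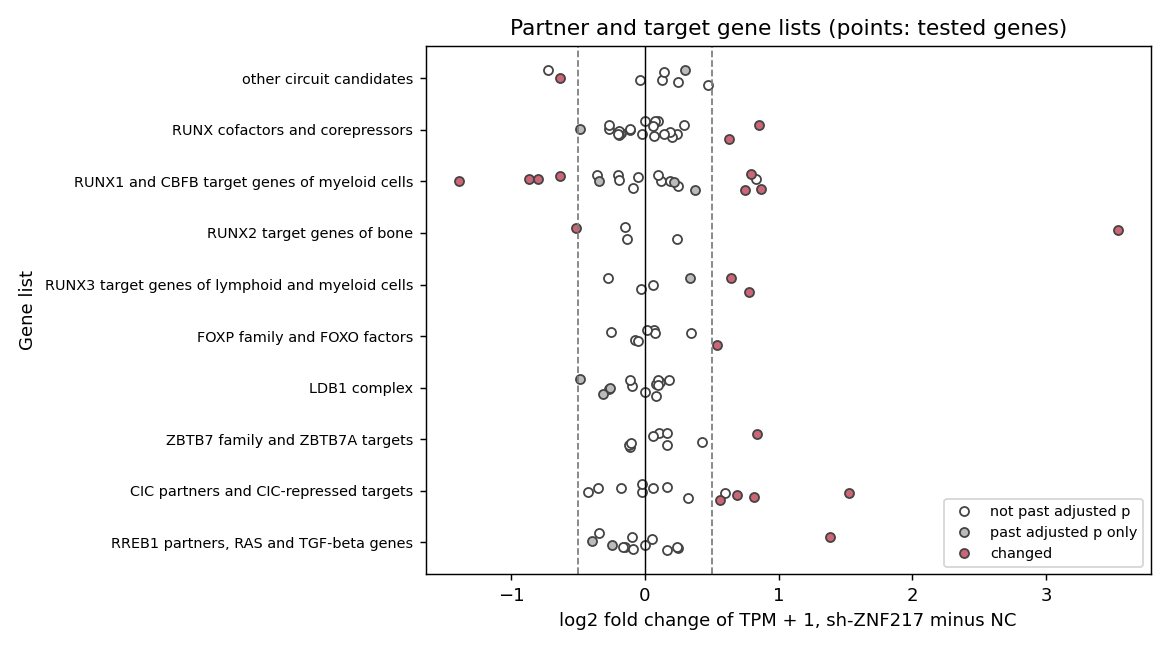
Difference in log2(TPM + 1), sh-ZNF217 minus NC, of the tested genes of 10 lists, with a point per gene, red where changed and grey where only the adjusted p passed. SPP1 lies far right at 3.54 and PRTN3 farthest left at -1.39, and the LDB1 complex has no red point.

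The libraries also differed in myeloid marker levels. Of 13 markers of monocytic and myeloid cells, all tested, 6 rose (LYZ, ITGAM, PTPRC, CSF1R, CD68 and TYROBP) and 0 fell. Over all tested genes 6.26% rose and 2.46% fell. The summed level of the 13 markers was 4960 and 4990 TPM in NC and 7720 and 7640 TPM in the sh-ZNF217-labelled libraries. Most of this sum and of its difference was LYZ alone, at 3270 and 3260 against 5510 and 5330 TPM. LYZ shares 599 exon bases with ENSG00000257764 on the other strand, and CD68 shares 1765 with ENSG00000264772 on the same strand. ITGB2, ANPEP, CD4 and FCGR1A were higher short of the fold minimum (0.42, 0.34, 0.22 and 0.39, limma adjusted p 0.0105 to 0.0405). Such an adjusted p was met in the higher direction by 9.77% of all tested genes. SPI1 and CD33 were at log2 fold changes of 0.12 and 0.06, and CD14 was low at 0.76 to 2.79 TPM. The calls of PTPRC, CSF1R, CD68 and TYROBP were each lost without at least 1 library. Of 6 T and NK cell markers CD2 and NKG7 were tested, with sums of 86.3 and 69.1 against 101 and 110 TPM, most of it NKG7. CD2 was at 1.12 to 1.68 against 3.77 to 5.33 TPM and called higher (1.20, limma adjusted p = 0.0308), but not without NC replicate 1 or either sh-ZNF217-labelled library (0.0744 to 0.129), while CD3D, CD3E, CD247 and GNLY were not tested. Of 5 B cell markers 3 were tested, with sums of 10.7 and 5.51 against 7.06 and 4.45 TPM. PAX5 was called lower (-0.80, limma adjusted p = 0.0458), a call lost without any of the 4 libraries (0.121 to 0.165). CD79A lay the other way, at 0.426 and 0.235 TPM in NC and 2.29 and 1.31 TPM in the others (1.06, limma adjusted p = 0.0659), and was called higher with protein-coding genes alone (1.10, limma adjusted p = 0.0295). MS4A1 and CD79B were not tested. Of the erythroid markers only KLF1 (1.10 to 3.74 TPM) and of the epithelial and fibroblast markers only PDGFRB (0.777 to 1.40 TPM) were tested. In bulk RNA, a change in the number of cells of a type and a change in RNA per cell cannot be told apart, and the part of these markers in the RUNX, LDB1 and RREB1 differences was not tested.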

How the data were processed

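Per the labels, total RNA was made into TruSeq libraries. The authors filtered reads and aligned them with HISAT2 (2.0.5 in the submitters' notes, hg38), while for the quantifier, the annotation release and the use of strand the entry is "not given in the sources used here". All values deposited by the authors carry no unit and were taken as TPM from their column sums (998932 to 999282) and from genes that share a transcript. The study names FPM as its measure, and the column sums alone cannot separate TPM from FPM. Orders, sums and ratios of different genes rest on this reading. TPM keeps no depth, so no counting error could be given. Column names were tied to labels through their group part (NC or ZNF) and number, and their other parts are unexplained. GENCODE 44 named 16143 of 17656 identifiers.

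Values were taken as log2(TPM + 1), which understates folds of low genes, and compared with limma 3.58.1 (R 4.3.3, trended and robust, group alone), as sh-ZNF217 minus NC with p-values adjusted by Benjamini-Hochberg. A gene that passed an adjusted p of 0.05 and an absolute log2 fold change of 0.5 is said to be changed, to rise or to fall. On simulated libraries of this comparison with 14204 genes tested, the test recovered 45 of 100 genes changed by 0.75 and 77 of 100 changed by 1.5, with 2 false calls. The genes given a change excluded those of low level and were far fewer than the changed genes of the data. Recovery in the data may therefore differ. Permutation tests used SciPy 1.17.1 and figures matplotlib 3.10.9 in Python 3.11.15.

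The members and lists were chosen with earlier results of these data known. So was the count of members past the adjusted p without a fold minimum. Named genes were the 9 members, ZNF217, the changed genes of each list or its gene of smallest p, and the 3 nearest profiles of RUNX1, RUNX2, RUNX3 and CBFB. Some genes that this rule takes in are not reported here. Other list genes were named after their values were seen. Promoter sequence came from RefSeq. Protein sequences were not used here. Alternatives covered pseudocount, filter, scaling, moderation, a replicate block and each left-out library.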

Additional observations from a re-analysis of the deposited data

How the results depend on the processing

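Of the 9 genes, 7 kept their direction under all 12 alternatives. CBFB turned without mitochondrially encoded genes (0.012) and over left-out libraries ran from -0.092 to 0.044, and FOXP1 turned likewise (0.0098) and ran from -0.207 to 0.159. The number of changed members, 0 as reported, was 1 (RUNX2) with a pseudocount of 0.1, 1 without mitochondrially encoded genes, 1 with protein-coding genes alone, and 4 with the adjusted p alone. The number past the adjusted p alone, 4 as reported, was 0 without trend and robust moderation and 0 to 1 over left-out libraries. The changed genes numbered 1272 over all tested genes and 21 over the lists, 723 over all genes without trend and robust moderation, and 461 to 1041 and 12 to 18 over left-out libraries, where a lone library was assumed to vary like the other group. Scaling moved the median log2 fold change of all genes from 0.02 to -0.01 or 0.05. With a replicate block 1 member, LDB1 (0.0475), stayed past the adjusted p, and 1049 genes and 20 of the lists were changed. Deviations of same-numbered libraries correlated at -0.00534 over 14582 genes, so no shared effect of the number was seen. With 2 libraries per group this cannot tell whether they were prepared as pairs. Without trend and robust moderation the calls of ATXN1, CD2, CD68, DUSP4, FOXO3, ITGAX, PTPRC, RANBP1 and TYROBP were lost (limma adjusted p 0.0604 to 0.0937). With the replicate block those of ATXN1 (0.0535) and PAX5 (0.0771) were lost. That of PAX5 was also lost without the filter (0.0541) and without mitochondrially encoded genes (0.0501). The cause of these shifts was not tested. The RUNX2 share and the ratio to CBFB kept their direction over left-out libraries (0.955 to 1.90 percentage points and 0.148 to 0.373).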
